A study of Mus musculus with 8 samples.

Results

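The 9 genes described here carry the main steps by which a hepatocyte makes, burns, stores and exports glucose. They are the gluconeogenic enzyme genes Pck1, G6pc and Fbp1, the glycolytic enzyme gene Pklr, the glucose transporter gene Slc2a2, and the glycogen genes Gys2, Pygl, Ppp1r3b and Ppp1r3c. They were chosen by name for their function and not by a rule on their measured values. Earlier results of these data were known when the choice was made. All 9 had a probe set that the platform annotation assigns to exactly 1 gene, out of 30636 genes measured in this way, and each of the 9 had only that probe set.

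Liver RNA was measured on 8 Affymetrix arrays, 4 from control mice and 4 from mice given anti-miR-128-3p. An anti-miR is a synthetic strand that pairs with a microRNA and blocks it, here miR-128-3p. All animals were male, of the strain C57BL/6, and had spent 13 weeks on a high fat diet, so both groups share the diet and the raised cholesterol it was meant to cause. Each mouse then had 5 injections into the peritoneal cavity, of the inhibitor or of a control that the labels call a vehicle in one place. One protocol field names the microRNA itself as the agent, while the titles and the design text name its inhibitor, and the groups follow the titles. The sources used here do not give age, the time since the last injection, the hour of death or whether the mice had been fasted. The comparison asks how expression in the liver differs when miR-128-3p is inhibited under this diet.

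Background helps in reading the genes. The liver releases glucose in fasting, first from glycogen and then by building it from lactate, glycerol and amino acids, and after a meal it takes glucose up, stores it as glycogen and turns the excess into fat. Glucagon and glucocorticoids raise transcription of Pck1 and G6pc, and insulin lowers it, whereas Pklr rises with sugar through the carbohydrate sensor encoded by Mlxipl. Glycogen itself is controlled largely by phosphorylation, and the Ppp1r3 proteins bring a phosphatase to the glycogen particle, where it switches the synthase on and the phosphorylase off.

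The microRNA that was inhibited has the mature sequence below, from RefSeq on GRCm38.p6, with its seed (bases 2 to 8, the part that pairs with target messages) in capitals. Mir128-1 on chromosome 1 (chr1:128202404-128202424, plus strand) and Mir128-2 on chromosome 9 (chr9:112118644-112118664, minus strand) give the same 21 bases.
miR-128-3p: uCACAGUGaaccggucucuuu

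RMA makes array distributions equal, so near-equal medians follow from it and do not test whether the arrays were alike. The median over genes lay between 5.04 and 5.12 (log2 RMA signal) on each, and across genes any pair of arrays had an r of 0.992 to 0.996. Every value of the 9 genes was 8.35 or more, while negative control rows had medians of 4.32 to 4.48. Hepatocyte markers (9 of 10 measured, among them Alb, Apoa1 and Ttr) had a mean signal of 13.30 to 13.31 in control and 13.24 to 13.41 in treated livers, as the tissue label calls for. Each array is taken as 1 mouse, from the design text's 4 mice a group, although no label ties an array to an animal, and p-values measure the spread between these samples. The number of arrays, 4 a group, limits precision throughout.

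None of the 9 genes differed between the groups past the correction for all genes tested. By limma, 0 of the 9 had an adjusted p under 0.05, as did 0 of all 30636 genes (0.0%), and the lowest adjusted p among the 9 was 0.634, for Slc2a2. At an unadjusted p under 0.05 there was 1 of 9 (11.1%), again Slc2a2, beside 7.63% of all genes, and with so few genes that share is near the background. The groups overlapped in all 9, where 4.41% of all genes had groups that did not overlap (1.89% lower and 2.52% higher in treated livers). Of the 9, 3 were higher and 6 lower after treatment, where 49.1% of all genes were higher. Their median log2 difference was -0.04 (treated minus control), beside -0.0017 over all genes. Leaving out control replicate 3 turned that median to 0.04, leaving out control replicate 4 turned it to 0.03, and leaving out treated replicate 1 turned it to 0.06.

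**Figure D1:**
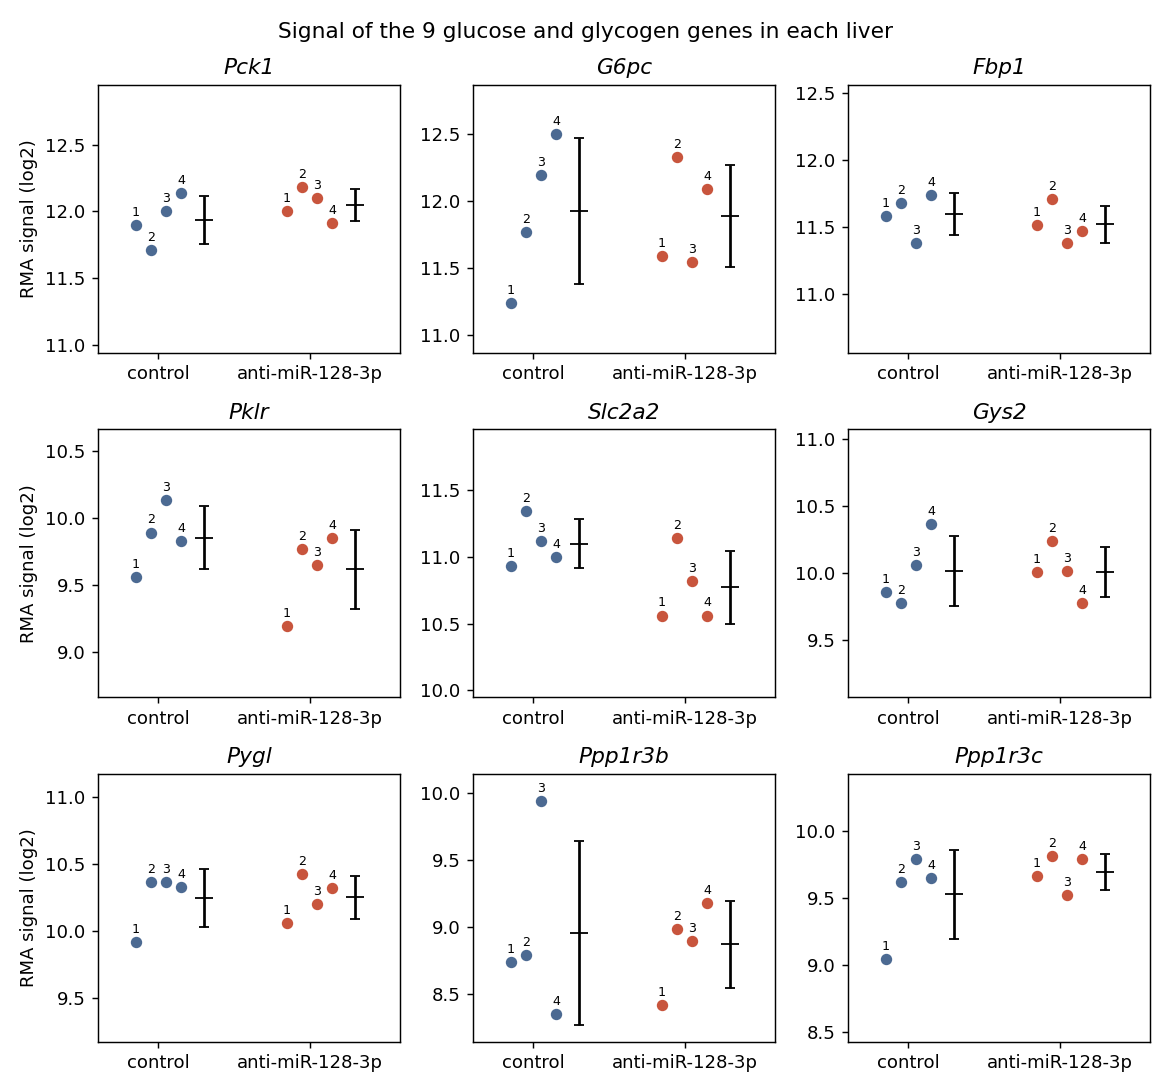
RMA signal (log2, vertical axis, 2 units tall in every panel) of each of the 9 genes in the 4 control livers (blue) and the 4 livers treated with anti-miR-128-3p (red), with replicate numbers at the points and mean ± SD as black bars. The groups overlap in every panel, and the spread is widest for G6pc and Ppp1r3b.

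Slc2a2, which encodes GLUT2, the high-capacity transporter through which glucose enters and leaves hepatocytes, had the largest difference of the 9. Its log2 signal was 10.93, 11.34, 11.12 and 11.00 in control replicates 1 to 4, and 10.56, 11.14, 10.82 and 10.56 in treated replicates 1 to 4. The 3 treated livers other than replicate 2 lay below every control liver, while treated replicate 2 lay above 3 of the controls. Means were 11.10 ± 0.18 in control and 10.77 ± 0.28 in treated livers (SD, n = 4 each), a log2 difference of -0.33 ± 0.14 (SE) with a 95% interval of -0.64 to -0.01, or 0.80 times the control signal. The limma p was 0.044 before and 0.634 after adjustment over all genes, and the exact two-sided permutation p over the 70 assignments of 4 against 4 was 0.143, so the difference did not pass.

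On leaving out single livers, which also leaves fewer arrays, the unadjusted limma p for Slc2a2 fell on either side of 0.05. The log2 difference was slightly larger without control replicate 4 (-0.36) or treated replicate 3 (-0.34), although the unadjusted limma p then rose past 0.05. Without treated replicate 2 the log2 difference was -0.45 and the groups did not overlap, with a limma adjusted p of 0.328. The unadjusted limma p was then 0.00357, and without control replicate 1 it was 0.0358. It rose to 0.117 when control replicate 2 was left out, 0.0801 for control replicate 3 and 0.0513 for control replicate 4. Among treated livers it rose to 0.117 for replicate 1, 0.0628 for replicate 3 and 0.118 for replicate 4. The sign was the same in all of these, with differences between -0.45 and -0.25, and the adjusted p ran from 0.328 to 0.960 over the 17 other settings tried.

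Markers of other liver cells are given beside this gene, and none of them passed limma's adjusted threshold. Over all genes, 4.26% were higher and 3.37% lower at an unadjusted p under 0.05. Groups did not overlap in 2.52% of all genes (higher in treated livers) and 1.89% (lower). Of 10 Kupffer cell and macrophage markers, 9 were higher in treated livers, 1 of them (Timd4) at an unadjusted p under 0.05, and their mean signal ran from 7.10 to 8.11 in control and from 7.59 to 8.83 in treated livers. The macrophage score (the mean over the markers of the signal minus each gene's mean) was -0.24, 0.08, -0.90 and 0.10 in control replicates 1 to 4 and 0.83, -0.41, 0.35 and 0.19 in treated replicates 1 to 4. These scores overlapped between the groups. Sinusoidal endothelial markers were lower in 9 of 10, 3 of them at an unadjusted p under 0.05, with a mean signal of 7.51 to 8.01 in control and 7.36 to 7.78 in treated livers. Of 10 hepatic stellate cell markers, 2 were higher and 3 lower at an unadjusted p under 0.05, and their mean signal was 7.43 to 7.64 in control and 7.54 to 8.06 in treated livers. The higher ones were the collagen genes Col1a1, at 6.88 to 7.01 in control and 7.65 to 9.96 in treated livers, and Col3a1, at 6.56 to 7.13 in control and 7.23 to 9.03 in treated livers. Neither overlapped between the groups, with log2 differences of 1.62 ± 0.41 and 1.22 ± 0.35 (SE; limma adjusted p = 0.343 and 0.406). The lower ones were Reln, Hgf and Ngfr, with log2 differences of -0.29 ± 0.09, -0.28 ± 0.11 and -0.15 ± 0.05 (SE). Their limma adjusted p was 0.436, 0.615 and 0.521. In Ngfr, too, the groups did not overlap, with all treated livers below all controls. The part of these cell types in the Slc2a2 difference was not tested. In whole liver, fewer cells of a type and less RNA per cell cannot be told apart.

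The stretch upstream of Slc2a2 is printed because this gene had the largest difference. It is the 250 bases before the start site in RefSeq's GRCm38.p6 (chr3:28697653-28697902, plus strand), and none of the 5 motifs described further on matched in it, so it has no capitals.
Slc2a2: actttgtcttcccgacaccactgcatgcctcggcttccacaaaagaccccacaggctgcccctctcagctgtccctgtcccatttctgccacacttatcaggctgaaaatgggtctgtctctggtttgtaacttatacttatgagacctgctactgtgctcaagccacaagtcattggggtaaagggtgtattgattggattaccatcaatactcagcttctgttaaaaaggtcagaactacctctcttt

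Among the gluconeogenic enzymes, Pck1, the cytosolic phosphoenolpyruvate carboxykinase that starts the route from oxaloacetate to glucose, had overlapping groups. Its log2 signal was 11.90, 11.71, 12.00 and 12.14 in control replicates 1 to 4 and 12.00, 12.18, 12.10 and 11.91 in treated replicates 1 to 4. Only treated replicate 2 exceeded the highest control liver. Means were 11.94 ± 0.18 and 12.05 ± 0.12 (SD, n = 4 each). The log2 difference was 0.11 ± 0.10 (SE), with a 95% interval of -0.10 to 0.33 (limma adjusted p = 0.851, exact two-sided permutation p = 0.371). On the fold scale that interval runs from 0.93 to 1.25 times the control signal. Without control replicate 2, the lowest of the 8 livers, the difference was 0.04.

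G6pc, the catalytic subunit of glucose-6-phosphatase, which frees glucose for export in the last step of both gluconeogenesis and glycogen breakdown, varied far more from liver to liver than between groups. It was at 11.24, 11.77, 12.20 and 12.50 in control replicates 1 to 4 and at 11.59, 12.33, 11.55 and 12.09 in treated replicates 1 to 4 (log2 signal). Both the lowest and the highest of the 8 livers were controls, 2.39-fold apart. Means were 11.93 ± 0.55 and 11.89 ± 0.38 (SD, n = 4 each), with a log2 difference of -0.04 ± 0.28 (SE) and a 95% interval of -0.66 to 0.59 (limma adjusted p = 0.990, exact two-sided permutation p = 0.914). An interval of 0.63 to 1.5 times the control signal does not exclude sizeable changes in either direction. Leaving out control replicate 1 gave a difference of -0.26, and leaving out control replicate 4 gave 0.15.

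Fbp1, the fructose bisphosphatase that opposes phosphofructokinase, was at 11.58, 11.68, 11.38 and 11.74 in control replicates 1 to 4 and at 11.51, 11.71, 11.38 and 11.47 in treated replicates 1 to 4 (log2 signal). These were the narrowest values of the 9, spanning 1.28-fold over all 8 livers. The log2 difference was -0.08 ± 0.09 (SE), with a 95% interval of -0.29 to 0.14 (limma adjusted p = 0.912, exact two-sided permutation p = 0.486). Leaving out control replicate 3 gave -0.15, and leaving out control replicate 4 gave -0.03.

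Pklr, the liver and red cell pyruvate kinase that closes glycolysis and works against Pck1, had the next largest difference after Slc2a2. It was at 9.56, 9.89, 10.13 and 9.83 in control replicates 1 to 4 and at 9.19, 9.77, 9.65 and 9.85 in treated replicates 1 to 4 (log2 signal). Treated replicate 1 lay below every control liver, and control replicates 2 and 3 lay above every treated liver. Means were 9.85 ± 0.23 and 9.62 ± 0.29 (SD, n = 4 each), a log2 difference of -0.24 ± 0.16 (SE) with a 95% interval of -0.59 to 0.12 (limma adjusted p = 0.802, exact two-sided permutation p = 0.286). Without treated replicate 1 the difference was -0.10, and without control replicate 1 it was -0.33.

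**Figure D2:**
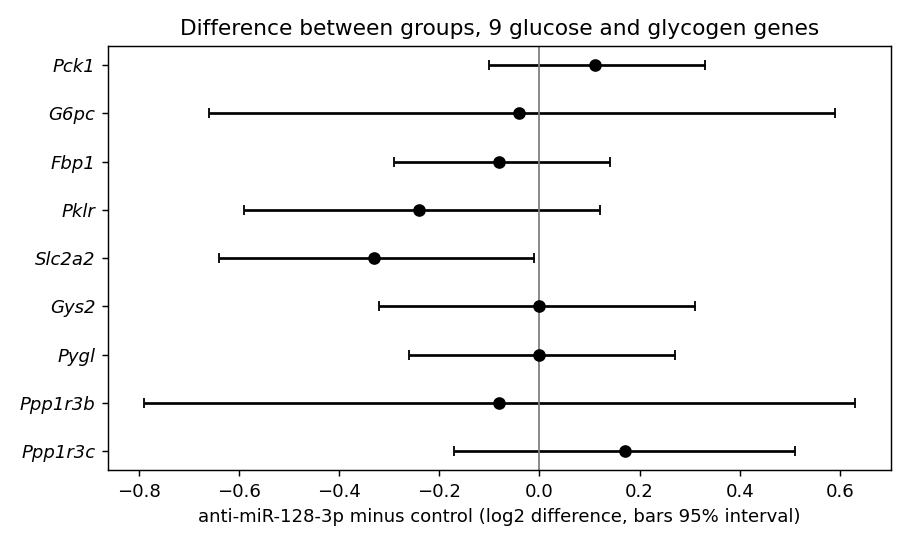
Log2 difference (anti-miR-128-3p minus control, horizontal axis) of each of the 9 genes with limma's 95% interval, from 8 arrays. The interval for Slc2a2, -0.64 to -0.01, lies just below 0 and the other 8 include 0, the widest being that of Ppp1r3b, -0.79 to 0.63.

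The glycogen enzymes had almost equal means in the 2 groups. Gys2, the liver glycogen synthase, was at 9.86, 9.78, 10.06 and 10.37 in control replicates 1 to 4 and at 10.01, 10.24, 10.02 and 9.78 in treated replicates 1 to 4 (log2 signal). Its lowest values in each group were the same to 2 decimals, and the highest liver was control replicate 4. The log2 difference was -0.005 ± 0.14 (SE), with a 95% interval of -0.32 to 0.31 (limma adjusted p = 0.997, exact two-sided permutation p = 1.0), and 0.11 without control replicate 4.

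Pygl, the liver glycogen phosphorylase that releases glucose units from glycogen, was at 9.92, 10.37, 10.37 and 10.33 in control replicates 1 to 4 and at 10.06, 10.43, 10.20 and 10.32 in treated replicates 1 to 4 (log2 signal). Control replicate 1 stood apart from the other controls, which lay between 10.33 and 10.37. The log2 difference was 0.0023 ± 0.12 (SE), with a 95% interval of -0.26 to 0.27 (limma adjusted p = 0.999, exact two-sided permutation p = 0.971), and -0.11 without control replicate 1.

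Of the genes for glycogen-targeting subunits of the phosphatase, Ppp1r3b, which encodes the liver subunit GL, varied most of all 9. It was at 8.74, 8.79, 9.94 and 8.35 in control replicates 1 to 4 and at 8.42, 8.99, 8.90 and 9.18 in treated replicates 1 to 4 (log2 signal). Control replicate 3 was 3.01-fold above control replicate 4, and the treated livers all lay between them. The log2 difference was -0.08 ± 0.31 (SE), with a 95% interval of -0.79 to 0.63 (limma adjusted p = 0.982, exact two-sided permutation p = 0.943), which became 0.25 when control replicate 3 was left out and -0.28 when control replicate 4 was.

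Ppp1r3c, which encodes PTG (protein targeting to glycogen), the more widely expressed relative, was at 9.04, 9.62, 9.79 and 9.65 in control replicates 1 to 4 and at 9.66, 9.81, 9.52 and 9.79 in treated replicates 1 to 4 (log2 signal). Control replicate 1 lay below all other livers. Means were 9.53 ± 0.33 and 9.69 ± 0.13 (SD, n = 4 each), a log2 difference of 0.17 ± 0.15 (SE) with a 95% interval of -0.17 to 0.51 (limma adjusted p = 0.863, exact two-sided permutation p = 0.429). Without control replicate 1 the difference was 0.01.

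The 9 genes varied more between livers of a group than most genes on the array did. Their pooled standard deviations within groups ran from 0.15 for Pck1 and Fbp1 to 0.47 for G6pc and 0.54 for Ppp1r3b, against a median of 0.096 over all genes, and all 9 were above that median. G6pc stood at the 98.6th and Ppp1r3b at the 99.0th percentile of this spread over all genes, and Fbp1, the least variable by this measure, at the 79.6th. This is a description of these arrays, in which dim genes, with little spread on the log scale, are included among all genes.

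No pair of the 9 genes was correlated past adjustment over all pairs, and the closest pairs are given as values. Among the 36 pairs of the 9 genes, 29 had a positive Pearson correlation of log2 signal over the 8 livers, with a median r of 0.30. Pck1 and Gys2 went together most closely (r = 0.86, exact two-sided permutation p = 0.0046, adjusted p = 0.119 over the 36 pairs; Spearman's rho = 0.93, exact p = 0.0022, adjusted p = 0.079). Without the 2 livers farthest from the Pck1 median, r was 0.87, and with each group's mean removed it was 0.94.

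The next closest pairs joined G6pc, Pygl and Ppp1r3c. For G6pc and Pygl r was 0.83 (exact two-sided permutation p = 0.0066, adjusted p = 0.119; rho = 0.79, exact p = 0.0279, adjusted p = 0.346), and 0.80 without the 2 livers farthest from the G6pc median. For G6pc and Ppp1r3c r was 0.77 (exact two-sided permutation p = 0.0106, adjusted p = 0.127; rho = 0.71, exact p = 0.0576, adjusted p = 0.346), and 0.92 without those 2 livers. For Pygl and Ppp1r3c r was 0.83 (exact two-sided permutation p = 0.0151, adjusted p = 0.136; rho = 0.71, exact p = 0.0576, adjusted p = 0.346), and 0.76 without the 2 livers farthest from the Pygl median. Control replicate 1 was the lowest liver for all 3 genes, and without it r was 0.71, 0.64 and 0.53 for the 3 pairs. In the same liver the score of 8 neutrophil markers was 1.28, against -0.40 to -0.17 in the other controls and -0.35 to 0.03 in treated livers (mean signal of 4.47 to 6.16 in control and 4.52 to 4.90 in treated livers). The score of 8 skeletal muscle markers was also highest there, at 0.30. It was -0.09 to -0.01 in the other controls and -0.13 to 0.03 in treated livers. The part of either score in the low values of these genes was not tested.

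Pklr also ran with Pygl (r = 0.74, exact two-sided permutation p = 0.0318, adjusted p = 0.229; rho = 0.71, exact p = 0.0576, adjusted p = 0.346), with r = 0.86 without the 2 livers farthest from the Pklr median. Pklr and Ppp1r3b had an r of 0.69 (exact two-sided permutation p = 0.0722, adjusted p = 0.433; rho = 0.57, exact p = 0.1511, adjusted p = 0.474), which rested on control replicate 3 and treated replicate 1: without them it was 0.03. Pck1 and G6pc, which hormones control alike, had an r of 0.47 (exact two-sided permutation p = 0.2395, adjusted p = 0.663; rho = 0.60, exact p = 0.1323, adjusted p = 0.474), and 0.45 without the 2 livers farthest from the Pck1 median.

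**Figure D3:**
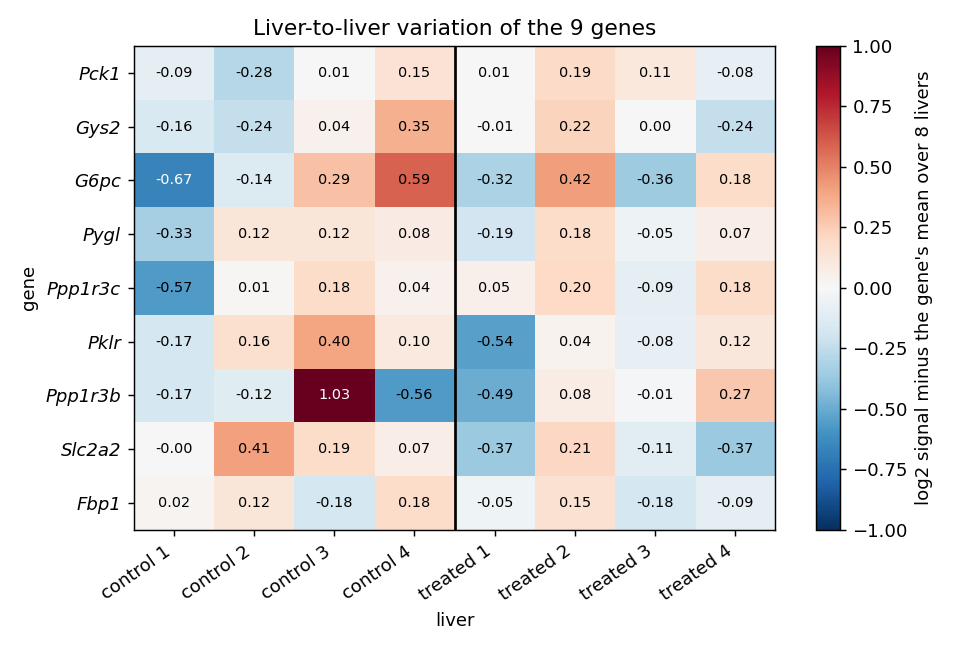
Log2 signal of each of the 9 genes (rows) in each of the 8 livers (columns), as the difference from that gene's mean over the 8 livers, printed in the cells. Control replicate 1 is low for G6pc, Pygl and Ppp1r3c, control replicate 3 is high for Ppp1r3b, and treated replicate 1 is low for Pklr, Ppp1r3b and Slc2a2.

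Genes outside the set were ranked by likeness to each member. Over the 8 livers, out of 11052 named protein-coding genes with a mean signal at or above the median, the closest to Pck1 were Ezh1, which encodes a histone methyltransferase (r = 0.954), and Uvrag, an autophagy gene (r = 0.949). The closest to G6pc was Nfatc3, a transcription factor gene (r = 0.967), followed by Ankrd33b (r = 0.955), and the closest to Fbp1 were Dand5 (r = 0.954) and Cd1d1 (r = 0.950). Pklr was closest to Ralgapb (r = 0.980) and Utp18 (r = 0.971). Slc2a2 was closest to Dpp8 (r = 0.966) and to Ftcd, an enzyme gene of histidine breakdown (r = 0.960). Gys2 was closest to Sacm1l (r = 0.975) and Nudt7 (r = 0.964), Pygl to Rfx7 (r = 0.967) and Ly6c2 (r = 0.953), Ppp1r3b to Traf3ip1 (r = 0.956) and Cln8 (r = 0.945), and Ppp1r3c to Rabep1 (r = 0.970) and Bptf (r = 0.946). With 8 livers and so many genes, correlations of this size were the top of a long list and are given as a description.

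The upstream sequences of Pck1, G6pc, Pygl and Ppp1r3c, which were in the pairs with the highest correlations, are printed with the motifs found in them. RefSeq's table for GRCm38.p6 held a window for 7 of the 9 genes (Pklr has 2 windows; Gys2 and Ppp1r3b were not in it), of which the 250 bases before the start site were searched on both strands. The motifs were the cAMP response element as the palindrome TGACGTCA and as its core TGACG, which lies within the palindrome, the forkhead core TGTTTAC, the E-box CACGTG and the TATA box TATAAA. Matches are in capitals.
Pck1: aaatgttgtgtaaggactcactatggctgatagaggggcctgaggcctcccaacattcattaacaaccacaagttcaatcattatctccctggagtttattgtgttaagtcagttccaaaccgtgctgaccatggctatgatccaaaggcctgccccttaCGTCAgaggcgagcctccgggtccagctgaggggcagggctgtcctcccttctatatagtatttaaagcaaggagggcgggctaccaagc
G6pc: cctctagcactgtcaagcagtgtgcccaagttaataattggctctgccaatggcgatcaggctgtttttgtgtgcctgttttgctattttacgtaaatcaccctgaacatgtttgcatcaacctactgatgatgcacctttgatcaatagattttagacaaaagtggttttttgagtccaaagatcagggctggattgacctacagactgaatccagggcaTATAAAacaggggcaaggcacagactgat
Pygl: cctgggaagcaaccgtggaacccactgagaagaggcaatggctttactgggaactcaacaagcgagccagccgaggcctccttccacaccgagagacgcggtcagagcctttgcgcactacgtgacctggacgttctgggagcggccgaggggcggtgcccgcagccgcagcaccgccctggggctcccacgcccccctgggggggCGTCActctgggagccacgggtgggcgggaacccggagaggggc
Ppp1r3c: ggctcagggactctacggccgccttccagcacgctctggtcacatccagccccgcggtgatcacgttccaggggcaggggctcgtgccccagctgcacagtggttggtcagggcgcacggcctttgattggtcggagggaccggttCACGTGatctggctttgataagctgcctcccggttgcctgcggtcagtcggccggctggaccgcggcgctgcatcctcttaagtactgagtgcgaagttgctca

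These windows are chr2:173152823-173153072 (plus strand) for Pck1, chr11:101367466-101367715 (plus strand) for G6pc, chr12:70227684-70227933 (minus strand) for Pygl and chr19:36736605-36736854 (minus strand) for Ppp1r3c. The cAMP response element core was found in Pck1, from 90 to 86 bases before the start, and in Pygl, from 44 to 40 bases before it, and in 17.8% of all 32851 windows of the same length. The TATA box was found in G6pc, from 29 to 24 bases before the start, and in the second of the Pklr windows, from 31 to 26 bases before it, and in 12.4% of all windows. The E-box was found in Ppp1r3c only, from 104 to 99 bases before the start, against 6.02% of all windows. The palindrome (1.55% of all windows) and the forkhead core (3.17%) were found in none of the 7 genes. The genes G6pc, Pygl and Ppp1r3c shared none of the 5 motifs. A match is a string of letters and not a measured binding site, and its lack says nothing of a factor.

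The wider pathway was read from lists of other genes. Together these lists held 126 genes, of which 111 were measured. Of these, 43 were higher and 68 lower in treated livers, where 49.1% of all genes were higher. None passed limma's adjusted threshold, and 13 were lower and 2 higher at an unadjusted p under 0.05 (11.7% and 1.80%). Over all genes, dim ones included, these shares were 3.37% lower and 4.26% higher. The total takes in the lists of genes higher in fasted or fed liver. The 2 higher genes, Fasn and Acaca, are from the fed list.

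Other genes of gluconeogenesis and its substrate supply were lower in 17 of 19 measured (22 listed) and had a median log2 difference of -0.06, and 4 were lower at an unadjusted p under 0.05 (21.1% of the list), 0 higher. Got2, the mitochondrial aspartate aminotransferase, was at 11.69, 11.86, 11.80 and 11.90 in control replicates 1 to 4 and at 11.55, 11.67, 11.65 and 11.62 in treated replicates 1 to 4 (log2 signal), so all 4 treated livers lay below all controls. Its log2 difference was -0.19 ± 0.06 (SE; limma adjusted p = 0.432, exact two-sided permutation p = 0.0286, the smallest this design can give). Pcx, the pyruvate carboxylase that supplies oxaloacetate to Pck1, was at 10.15, 10.36, 10.20 and 10.03 in control and at 9.79, 10.03, 9.78 and 10.08 in treated replicates 1 to 4. Pcx had a log2 difference of -0.26 ± 0.09 (limma's SE and adjusted p = 0.549). The groups overlapped, because treated replicates 2 and 4 were not below control replicate 4, the lowest control. Gpd1, the cytosolic glycerol phosphate dehydrogenase, differed by -0.38 ± 0.13 and Fbp2, the muscle form of the bisphosphatase, by -0.16 ± 0.06 at a signal of 4.68 in control livers, close to the negative control rows. Without treated replicate 1 the number of genes at an unadjusted p under 0.05 was 2.

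Other genes of glycolysis were divided, with 11 higher and 7 lower of 18 measured (25 listed) and a median log2 difference of 0.02. Only Pgam1, a phosphoglycerate mutase, had an unadjusted p under 0.05 (-0.16 ± 0.07, limma adjusted p = 0.620). Leaving out treated replicate 2 gave a count of 4, and leaving out control replicate 4 gave 2. Leaving out any 1 of control replicates 2 and 3 and treated replicates 1 and 3 gave 0. Gckr had means of 10.35 ± 0.24 (control) and 10.36 ± 0.16 (treated; SD, n = 4 each).

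Other glycogen genes were lower in 17 and higher in 10 of 27 measured (28 listed) and had a median log2 difference of -0.04, and 3 were lower at an unadjusted p under 0.05 (11.1%), 0 higher. Gsk3a, a kinase that inactivates glycogen synthase, was at 9.05, 8.92, 9.17 and 9.01 in control and at 8.62, 8.85, 8.70 and 8.96 in treated replicates 1 to 4, a log2 difference of -0.25 ± 0.08 (SE; limma adjusted p = 0.508). Ppp1ca, a catalytic subunit of the phosphatase that Ppp1r3b and Ppp1r3c direct to glycogen, was at 10.02, 10.60, 10.41 and 10.11 in control and at 9.82, 10.07, 9.94 and 10.03 in treated replicates 1 to 4, a log2 difference of -0.32 ± 0.12 (SE; limma adjusted p = 0.591). The groups overlapped in both. Phkg2, the liver catalytic subunit of phosphorylase kinase, differed by -0.19 ± 0.08. Without control replicate 2 the number of genes at an unadjusted p under 0.05 was 1.

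The relatives of Ppp1r3b and Ppp1r3c showed differences no larger than 0.10. Log2 differences were -0.07 ± 0.05 for Ppp1r3a, -0.10 ± 0.07 for Ppp1r3d, 0.07 ± 0.13 for Ppp1r3e, 0.04 ± 0.07 for Ppp1r3f and -0.03 ± 0.09 for Ppp1r3g (SE), with limma adjusted p from 0.811 to 0.973. Control means ran from 3.10 for Ppp1r3a, the muscle form, to 5.15 for Ppp1r3e, so that the dimmest were below the medians of the negative control rows. The sign for Ppp1r3e, Ppp1r3f and Ppp1r3g turned without single livers.

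Among the other glucose transporter genes, relatives of Slc2a2, 6 were lower and 4 higher of 10 measured, with a median log2 difference of -0.01 and 0 at an unadjusted p under 0.05 by limma. The count was 1 without control replicate 3 or without treated replicate 2.

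Regulators of these genes were lower in 14 and higher in 7 of 21 measured (24 listed) and had a median log2 difference of -0.04, and 4 were lower at an unadjusted p under 0.05 (19.0%), 0 higher. Creb3l3, a hepatocyte transcription factor of the fasting response, was at 9.49, 9.32, 9.48 and 9.38 in control and at 9.04, 9.24, 9.16 and 9.26 in treated replicates 1 to 4, a log2 difference of -0.24 ± 0.06 (SE; limma adjusted p = 0.345). Crtc2, the coactivator through which glucagon raises Pck1 and G6pc, was at 7.52, 7.50, 7.66 and 7.55 in control and at 7.44, 7.42, 7.33 and 7.39 in treated replicates 1 to 4, a log2 difference of -0.16 ± 0.05 (SE; limma adjusted p = 0.467). The groups did not overlap in Creb3l3 and Crtc2, nor in Nr0b2, a repressive nuclear receptor (-0.76 ± 0.28, and -0.48 without treated replicate 4); over all genes 1.89% had treated livers lying wholly below controls. Hnf4a, a nuclear receptor of hepatocyte identity that acts on many of the 9 genes, differed by -0.24 ± 0.10 (limma adjusted p = 0.606). Without control replicate 3 the number of genes at an unadjusted p under 0.05 was 2.

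The other regulators named here had an unadjusted limma p over 0.05. Mlxipl, the sugar sensor that acts on Pklr, differed by -0.19 ± 0.12 (limma adjusted p = 0.785), and Foxo1, the factor through which insulin lowers Pck1 and G6pc, by -0.03 ± 0.12 (limma adjusted p = 0.985), the latter turning sign without single livers. Ppargc1a, a fasting coactivator of Pck1 and G6pc, was at 7.24, 7.05, 7.21 and 7.30 in control and at 7.16, 7.43, 8.06 and 6.96 in treated replicates 1 to 4, with the single high value in treated replicate 3. Its log2 difference of 0.20 ± 0.20 (limma adjusted p = 0.881) was -0.01 without that liver, in which Pck1 was at 12.10 and G6pc at 11.55.

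**Figure D4:**
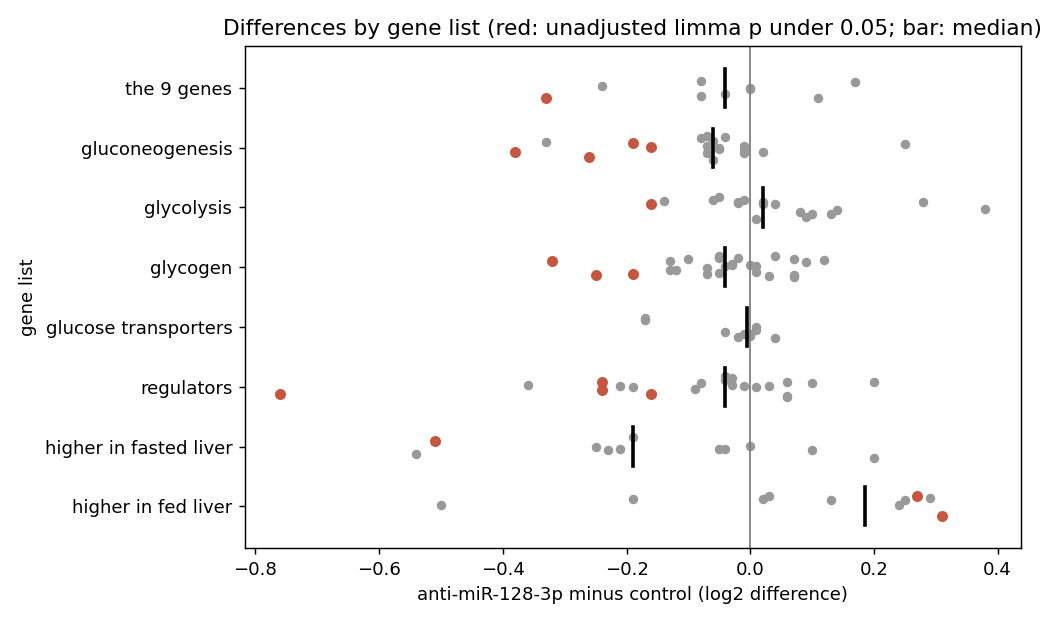
Log2 difference (anti-miR-128-3p minus control, horizontal axis) of every measured gene in the 9-gene set and in 7 lists of other genes (rows); red points have an unadjusted limma p under 0.05 and black bars are medians. Red points lie above 0 in the list of genes higher in fed liver and below 0 in the other rows that hold any (glucose transporters hold none); none of the points passed adjustment over all genes.

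The genes studied are zoned in the liver lobule, with gluconeogenesis strongest around the portal vein. Periportal markers were lower in 6 of 7 measured (10 listed), at a median of -0.13 on the log2 scale, with mean signals of 11.64 to 11.78 in control and 11.38 to 11.72 in treated livers. Pericentral markers were lower in 6 of 7 measured (10 listed), with a median of -0.04 and mean signals of 10.17 to 10.48 and 10.07 to 10.28. No marker of either zone had an unadjusted limma p under 0.05. The periportal score was 0.02, 0.16, 0.04 and 0.07 in control and -0.24, 0.08, 0.10 and -0.23 in treated replicates 1 to 4. Its part in the Slc2a2 difference was not tested. Skeletal muscle markers, which were checked because muscle expresses other forms of the glycogen enzymes, had mean signals of 4.99 to 5.38 in control and 4.95 to 5.11 in treated livers. Cholangiocyte markers (5 of 8 measured) had mean signals of 5.03 to 5.17 and 4.97 to 5.16.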

How the data were processed

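Liver RNA of 8 mice was hybridised to 8 Affymetrix arrays. The deposited values are log2 signals made by the authors with RMA, which corrects background, makes array distributions equal and summarises probes, per the submitters' processing notes. The sources used here give no software version, annotation build or filter. The table held 72688 rows, of which 6732 control rows were left out, and no detection call came with the values. Of 65956 transcript probe sets the annotation listed 32750, and 31094 named exactly 1 gene, with symbols updated by Entrez ID against RefSeq's GRCm38.p6 table. Of several probe sets of a gene the one with the highest mean over the 8 arrays was kept, giving 30636 genes.

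Groups were compared by lmFit and eBayes of limma 3.58.1 under R 4.3.3 (no covariate, two-sided, Benjamini-Hochberg over all genes, threshold 0.05). Errors on log2 differences are limma's SE. Single values were also compared by exact permutation over 70 assignments, whose smallest p is 0.0286. The fit was tested on simulated data. The 9 genes, the lists and the tests were chosen with earlier results of these data known. Named besides them are at most 4 genes a list with an unadjusted p under 0.05, the Ppp1r3 relatives, Gckr, Foxo1, Mlxipl and Ppargc1a, and the 2 genes most like each member. The marker genes Timd4, Col1a1, Col3a1, Reln, Hgf and Ngfr, and which marker scores stand beside a gene, were chosen after the values were seen. Alternatives were other moderation, array weights, filters on dim genes, other probe set rules, quantile normalization, median centring, a replicate block and leaving out each array.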

Additional observations from a re-analysis of the deposited data

Results flagged for a closer look

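Among 100 groups of 4 livers examined (the 9 genes, the other named genes, and the scores of the gene and marker lists), 6 held a liver whose gap to its nearest neighbour made up more of the group's range than Dixon's 95% critical value allows, where chance gives about 1 in 20. Among the 9 genes this was Pygl in control replicate 1, at 9.92 against 10.33 to 10.37 in the other controls. Of the other genes, Angptl4 was at 9.11 in treated replicate 3 with the next treated liver at 8.46, and Nr0b2 was at 7.75 in treated replicate 4 with the next at 8.88. Pgam1 was at 9.56 in treated replicate 1 with the next at 9.76, and Ppp1r3e was at 4.97 in control replicate 2 with the next at 5.19. The neutrophil marker score was 1.28 in control replicate 1, with the next control at -0.17.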

How the results depend on the processing

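Under the 17 alternatives 0 of the 9 genes passed limma's adjusted threshold, and over all genes 0 passed except without control replicate 4, where 1 did (range 0 to 1 on leaving out a liver). The number of the 9 at an unadjusted p under 0.05 was 0 with arrays centred on their median (Slc2a2 was then at 0.0605) and 0 to 1 on leaving out a liver; groups did not overlap in 0 to 1 of the 9, and the median log2 difference over the 9 ran from -0.12 to 0.06. The same replicate numbers did not pair the livers: same-numbered deviations correlated at -0.031, -0.02, -0.079 and -0.123, and no liver correlated best with its own number. With the replicate number as a block 2 of the 9 were at an unadjusted p under 0.05 (Slc2a2 and Pklr), 1 of the other transporters was, and 0 genes passed adjustment. On leaving out a liver, log2 differences ran from -0.26 to 0.15 for G6pc, -0.08 to 0.11 for Gys2, -0.11 to 0.07 for Pygl, -0.28 to 0.25 for Ppp1r3b, -0.14 to 0.04 for Foxo1, -0.10 to 0.09 for Gckr, -0.01 to 0.35 for Ppargc1a, -0.05 to 0.17 for Ppp1r3e, -0.01 to 0.08 for Ppp1r3f and -0.10 to 0.01 for Ppp1r3g. Gys2 was at 0.01 with quantile normalization, Pygl at -0.01 with array weights and -0.01 with centring, and Gckr at -0.02 and -0.00045 under the same settings. Genes of the other lists at an unadjusted p under 0.05 numbered, on leaving out a liver, 2 to 4 for gluconeogenesis, 0 to 4 for glycolysis, 1 to 3 for glycogen, 0 to 1 for transporters, 2 to 4 for regulators, 0 to 2 for genes higher in fasted liver and 2 to 4 for genes higher in fed liver. In glycolysis there were 0 with trend and robust moderation, 2 with array weights and 0 with centring, among transporters 1 with array weights, and among genes higher in fasted liver 2 with quantile normalization and 2 with centring. Where no cause follows from fewer arrays, the cause was not tested. Signals of dim relatives such as Ppp1r3a are limited by background.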

Other observations

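Whether the mice had eaten before death is not recorded in the sources used here, and genes known to follow feeding were therefore read as values. Genes higher in fasted liver were lower after treatment in 8 of 11 measured (12 listed), and their median log2 difference was -0.19. Angptl4, a lipase inhibitor induced by fasting, had a control mean of 9.10 ± 0.24 and a treated mean of 8.59 ± 0.35 (SD, n = 4 each; limma adjusted p = 0.542), and was the only one at an unadjusted p under 0.05. Leaving out control replicate 4 gave a count of 2, and leaving out treated replicate 1 gave 0. Genes higher in fed liver were higher in 8 of 10 measured (12 listed), with a median of 0.18. Fasn, the fatty acid synthase, differed by 0.31 ± 0.10 and Acaca, the carboxylase ahead of it, by 0.27 ± 0.09 (SE; limma adjusted p = 0.503 and 0.509), and these were the 2 of 10 at an unadjusted p under 0.05. For the fed list the count was 4 without control replicate 1 or control replicate 4. Scores of the fasted list overlapped, from -0.23 to 0.35 in control and from -0.29 to 0.21 in treated livers, as did those of the fed list, from -0.31 to 0.38 and from -0.03 to 0.14.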
